A study of Mus musculus with 9 samples.

Results

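Hnf4a, Foxa1, Foxa2, Foxa3, Cebpa, Cebpb, Onecut1, Prox1 and Nr5a2 are transcription factor genes that set and maintain the identity of the hepatocyte. They were chosen by name, and all 9 were found among the 21873 genes of the liver mRNA table. The table covers 9 livers of male C57BL/6 mice, 8 weeks old at the start, in 3 groups of 3 animals. Control mice received normal saline by intraperitoneal injection for 8 weeks, and TAA mice received thioacetamide, a hepatotoxin that is activated in hepatocytes and causes fibrosis, at 200 mg/kg every 3 days over the same period. Both of these groups were collected 72 h after the last injection. Recovery mice had the same course of TAA and were then left without injections for 8 more weeks. They were therefore 8 weeks older than the other mice at collection, and no control of their age was among the samples, so age and recovery cannot be told apart. The labels name no batch.

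Hepatocyte identity is held by a small network of factors that bind each other's promoters and the enhancers of metabolic and secretory genes. HNF4A is the nuclear receptor at its centre, the FOXA proteins are forkhead pioneer factors that open chromatin, and C/EBPα and C/EBPβ are leucine zipper factors, of which the former restrains growth and drives metabolic genes while the latter acts in the acute phase response and regeneration. ONECUT1 (HNF6) acts in both hepatocytes and developing bile ducts, PROX1 is a homeobox protein of hepatocytes that also specifies lymphatic endothelium, and NR5A2 (LRH-1) is a nuclear receptor of bile acid and cholesterol metabolism.

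In brief, 7 of the 9 genes were lower in TAA livers than in control livers, led by Cebpa, Prox1 and Hnf4a, where 26.3% of all genes were lower, and 7 were higher after recovery than at the end of TAA, where 24.5% of all genes were. Foxa3 was the only member called different from control after recovery, at 1.61-fold lower. Onecut1 passed the test in none of the comparisons. How many members passed depended on how the libraries were scaled, and Hnf4a, Foxa3, Cebpa and Prox1 were called lower in TAA under each of the 4 scalings tried. In recovery against TAA the count of higher members fell to 2 on the deposited values and to 2 after quantile normalization, and no member was called higher under all 4 scalings.

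The members are protein-coding genes on chromosomes 1, 2, 7, 9 and 12 of the mm10 (GRCm38) assembly. Hnf4a (ENSMUSG00000017950) spans chr2:163506808-163572910 on the plus strand, Foxa2 (ENSMUSG00000037025) spans chr2:148042877-148046969 on the minus strand, and Cebpb (ENSMUSG00000056501) spans chr2:167688915-167690418 on the plus strand as a gene of 1 exon. Foxa3 (ENSMUSG00000040891) spans chr7:19013284-19023538 on the minus strand and Cebpa (ENSMUSG00000034957) chr7:35119293-35121928 on the plus strand. Prox1 (ENSMUSG00000010175, chr1:190118035-190217275) and Nr5a2 (ENSMUSG00000026398, chr1:136842476-136960448) are both on the minus strand. Foxa1 (ENSMUSG00000035451, chr12:57540628-57546916) is on the minus strand and Onecut1 (ENSMUSG00000043013, chr9:74856658-74894159) on the plus strand. The table's loci of R3hdml, Ttc6 and Tmem189 overlap those of Hnf4a, Foxa1 and Cebpb, Tmem189 on the strand opposite to Cebpb. The GENCODE M21 annotation also places antisense genes on Hnf4a, Cebpa and Prox1. Whether reads were counted by strand is not given in the sources used here, so reads from either strand may be mixed at these loci.

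The promoters of the members are shown because the factors are known to bind one another's promoters. A promoter was in the RefSeq table for all 9 genes, with 14 start sites between them (GRCm38.p6). The 250 bases before each start were searched on both strands for 5 short motifs, each with its share among 32536 promoter windows of all genes: HNF4 (CAAAGTC, 3.87%), FOXA (TGTTTAC, 3.17%), C/EBP (TTGCNNAA, 9.57%), ONECUT (ATCNATA, 4.72%) and NR5A2 (AAGGTCA, 4.09%). Hnf4a has a distal start and a proximal start, the latter used in adult liver. The stretch before the distal start held an ONECUT match 59 to 53 bases upstream, and the window of the proximal start held no match to any motif. The window of the most upstream Foxa2 start held an ONECUT match 214 to 208 bases upstream. The windows of the other Foxa2 starts held no match. No match to any of the motifs lay in the windows of Foxa3 and Cebpa, printed here because Cebpa fell furthest in TAA and Foxa3 stayed below control after recovery. Capitals mark the motif matches. Sequences run 5′ to 3′ on the strand of the gene, and the window of the distal Hnf4a start stops where an annotated exon begins.
Hnf4a distal start, chr2:163506607-163506807, plus strand: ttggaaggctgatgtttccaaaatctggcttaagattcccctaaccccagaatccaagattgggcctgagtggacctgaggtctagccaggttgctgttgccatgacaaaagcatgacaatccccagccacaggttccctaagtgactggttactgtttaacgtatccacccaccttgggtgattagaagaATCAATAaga
Foxa2, chr2:148046970-148047219, minus strand: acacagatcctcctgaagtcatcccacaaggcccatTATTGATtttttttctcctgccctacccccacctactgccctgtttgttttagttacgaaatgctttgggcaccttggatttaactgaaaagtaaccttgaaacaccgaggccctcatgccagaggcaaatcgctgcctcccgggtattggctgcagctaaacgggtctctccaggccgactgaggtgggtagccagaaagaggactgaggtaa
Foxa3, chr7:19023540-19023789, minus strand: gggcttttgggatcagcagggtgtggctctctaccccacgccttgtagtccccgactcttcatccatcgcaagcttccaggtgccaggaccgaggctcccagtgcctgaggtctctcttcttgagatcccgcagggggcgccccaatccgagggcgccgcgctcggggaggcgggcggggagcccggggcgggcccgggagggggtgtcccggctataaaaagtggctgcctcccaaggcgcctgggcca
Cebpa, chr7:35119043-35119292, plus strand: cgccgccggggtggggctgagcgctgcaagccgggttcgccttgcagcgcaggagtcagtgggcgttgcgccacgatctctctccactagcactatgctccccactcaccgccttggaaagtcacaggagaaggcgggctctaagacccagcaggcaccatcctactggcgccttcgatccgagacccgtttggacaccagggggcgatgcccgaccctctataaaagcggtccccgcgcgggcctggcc
Of the other windows, Foxa1 held a FOXA match 141 to 135 bases before its start, and 1 of the Nr5a2 starts had a C/EBP match 243 to 236 bases upstream. The windows of Cebpb, Onecut1 and Prox1 held none. A match is a description of the letters and does not show that a factor binds there.

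Levels are given as scaled FPKM, that is fragments adjusted for gene length and library size, divided by a factor per library computed from the median ratio of all genes above 0 in every library. These factors were 0.827 to 0.878 in control, 1.29 to 1.38 in TAA and 0.893 to 0.907 in recovery livers. The scaling matters, because the median log2 fold change of all genes in TAA against control was 0.63 on the deposited values and 0.02 after scaling. For recovery against TAA it was -0.55 and -0.01. Library sizes estimated from the low values ranged from 26.9 to 40.6 M fragments, which puts the members between 354 fragments (Foxa1) and 39029 (Hnf4a) in a library. Libraries of the same group correlated at 0.975 to 0.987 across genes. TAA replicate 3 stood apart in its summed level of 6 skeletal muscle markers, 36.6 scaled FPKM against 0.153 to 0.426 in the other libraries. Control replicate 1 had the lowest control sums of endothelial (53.2 against 93.1 and 97.3) and macrophage markers (103 against 156 and 158). It was also the lowest control for lymphocyte and neutrophil markers, but not for cholangiocyte markers.

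In control livers Hnf4a was the most abundant member, with 223, 232 and 189 scaled FPKM, above 98.2% of the genes tested. Cebpa followed at 196 ± 7.19 scaled FPKM (SD, n = 3), within the spread of Hnf4a, and then Cebpb at 108 ± 17.8, Foxa3 at 36.2 ± 1.17, Nr5a2 at 22.3 ± 1.57, Prox1 at 13.5 ± 0.188 and Foxa2 at 8.67 ± 0.597. Foxa1, at 4.91 ± 0.464 scaled FPKM, and Onecut1, at 4.41 ± 1.32, were lowest and overlapped each other. In TAA livers the order changed in 3 places, with Cebpb above Cebpa, Foxa2 above Prox1 and Onecut1 above Foxa1, but the libraries of each of these pairs overlapped in TAA. The order after recovery was that of control. Foxa3 was the most abundant of the Foxa genes in each group.

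**Figure D1:**
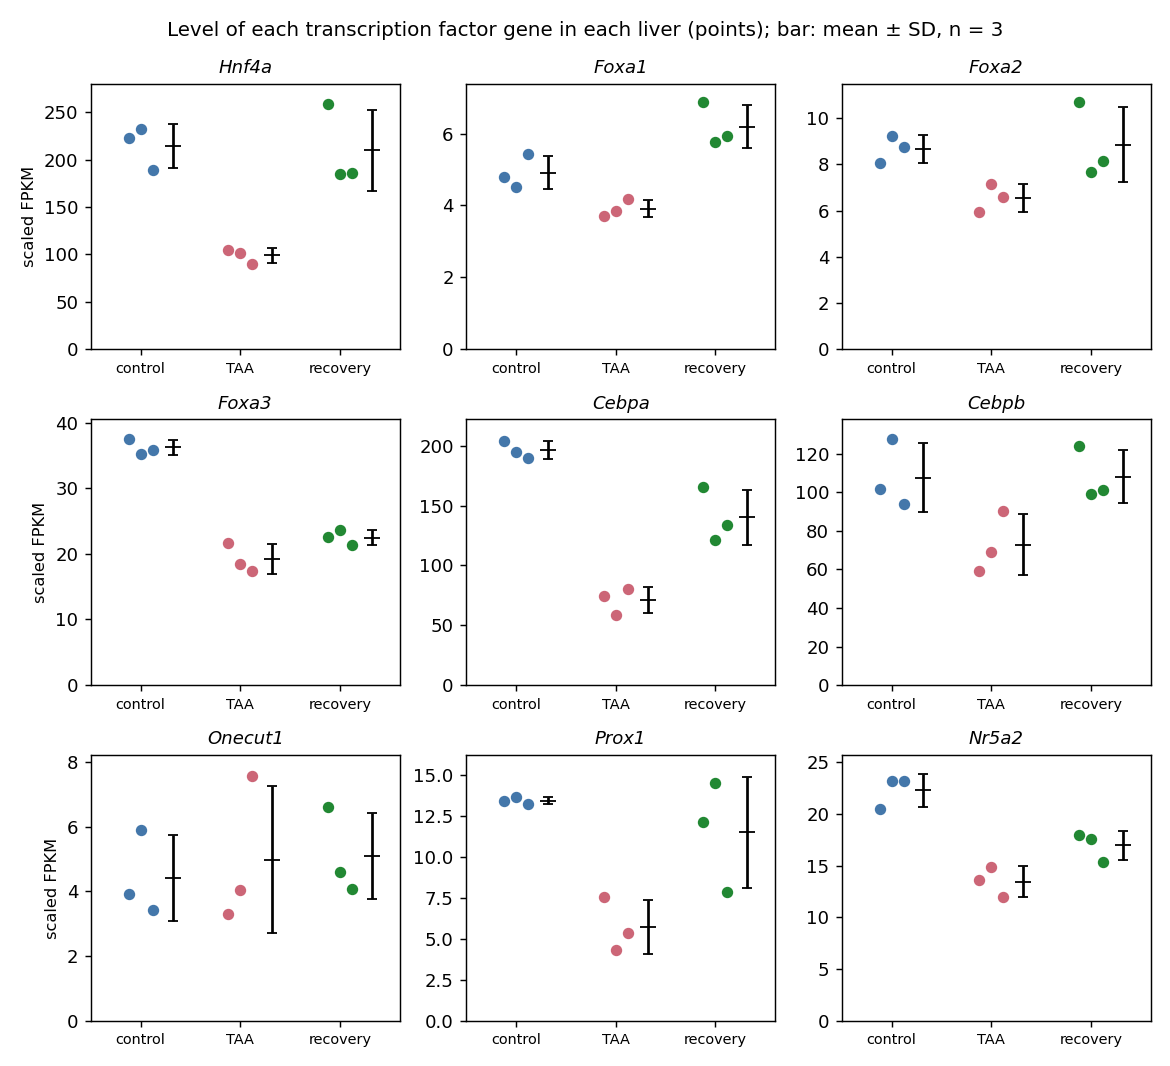
Scaled FPKM (vertical axes, each from 0) of the 9 transcription factor genes in each control, TAA and recovery liver, 1 point per mouse, with the mean ± SD of 3 beside each group. For Hnf4a, Cebpa, Prox1, Nr5a2 and Foxa3 all TAA points lie below all control points, and for Foxa3 the recovery points, 21.3 to 23.7, stay close to the TAA points, 17.5 to 21.7.

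TAA against control asks what 8 weeks of the toxin did to the network. Of the 9 members, 7 were called lower, meaning an adjusted p under 0.05 for log2(scaled FPKM + 0.1) in limma (Benjamini-Hochberg over 14094 genes), where 26.3% of all genes were called lower, 28.2% higher and 54.5% in either direction. No member was called higher in limma, also at an unadjusted p under 0.05 (0 of 9). With a fold change of at least 2 also required, 3 members were called, Cebpa, Prox1 and Hnf4a, where 8.02% of all genes were called lower. The median log2 fold change of the members was -0.73, against 0.02 for all genes. For 8 of the 9 members no TAA liver overlapped a control liver, which was so for 63.6% of all genes. Without TAA replicate 3, 7 members were also called lower, and over all leave-one-out fits 5 to 7 were. These fits called 47.2% to 51.8% of all genes in either direction. In liver tissue, fewer hepatocytes and less RNA per hepatocyte cannot be told apart.

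Cebpa, which drives the metabolic genes of the resting hepatocyte, fell furthest. Its level was 204, 195 and 189.9 scaled FPKM in control and 74.1, 58.7 and 80.6 in TAA livers. The groups lay far apart, with a log2 fold change of -1.48 ± 0.13 (SE) and an adjusted p of 7.31e-05, 2.78-fold lower. Prox1, a partner of HNF4A in hepatocytes, was at 13.4, 13.7 and 13.3 scaled FPKM in control and 7.54, 4.33 and 5.36 in TAA. Control livers were nearly equal while TAA livers spread, and the log2 fold change was -1.25 ± 0.19 with an adjusted p of 0.00104. Hnf4a was at 105, 101 and 90.2 scaled FPKM in TAA, each under every control value, with a log2 fold change of -1.11 ± 0.11 and an adjusted p of 1.50e-04. Markers of lymphatic endothelium, the other source of Prox1, summed to 25.6 to 38.6 scaled FPKM in control and 50.6 to 55.7 in TAA. Of these markers 2 of 5 were called higher, Pdpn and Reln, where 28.2% of all genes were. Reln is also in the stellate cell list. The part of lymphatic endothelium in the level of Prox1 was not tested.

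Foxa3, the most abundant Foxa gene of adult liver, was at 37.6, 35.3 and 35.9 scaled FPKM in control and 21.7, 18.5 and 17.5 in TAA livers. Its log2 fold change was -0.92 ± 0.10 with an adjusted p of 2.39e-04. Nr5a2 was at 20.5, 23.2 and 23.2 scaled FPKM in control and 13.6, 14.9 and 11.9 in TAA. Its groups did not overlap either, with a log2 fold change of -0.73 ± 0.11 and an adjusted p of 0.00105. Foxa2, a regulator of gluconeogenic and bile acid genes, was 8.04, 9.23 and 8.73 scaled FPKM in control and 5.92, 7.14 and 6.58 in TAA, with a smaller log2 fold change of -0.40 ± 0.11 and an adjusted p of 0.0164. Cebpb was 102, 128 and 93.9 scaled FPKM in control and 59.3, 68.8 and 90.6 in TAA, where TAA replicate 3 came close to the lowest control. Its log2 fold change was -0.57 ± 0.18 with an adjusted p of 0.0278. Foxa2 and Cebpb were the calls most easily lost. Foxa2 did not pass without control replicate 2 (adjusted p 0.0597) or without TAA replicate 1 (0.0597), and Cebpb did not pass without control replicate 2 (0.0886), TAA replicate 1 (0.0864) or TAA replicate 2 (0.0772), in limma.

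Foxa1 and Onecut1 did not pass the test. Foxa1 was 4.79, 4.52 and 5.42 scaled FPKM in control and 3.71, 3.85 and 4.18 in TAA, without overlap, at a log2 fold change of -0.32 ± 0.12 and an adjusted p of 0.0501. At the same sign it passed in limma with a pseudocount of 0.01 (adjusted p 0.0491), without a filter on low values (0.0480), at a mean FPKM of at least 1 (0.0433), with all 9 libraries in 1 fit (0.0368) and with robust eBayes (0.0482). Onecut1 was 3.91, 5.91 and 3.42 scaled FPKM in control and 3.31, 4.05 and 7.57 in TAA, with TAA replicate 3 above all other livers. Its log2 fold change was 0.12 with a 95% interval from -0.64 to 0.87 and an adjusted p of 0.779, and without TAA replicate 3 it was -0.22. That interval leaves room for a change of either sign.

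The scaling of the libraries set the size of all these differences and, for 3 genes, their sign. On the deposited FPKM, where the median of all genes lay at 0.63, the log2 fold change was -0.84 for Cebpa, -0.62 for Prox1, -0.48 for Hnf4a and -0.28 for Foxa3, each still called lower in limma (adjusted p 7.78e-04, 0.0157, 0.00261 and 0.0215), while 8.5% of all genes were called lower and 62.2% higher. Nr5a2 was at -0.09 there and not called. Foxa1 was at 0.31, Foxa2 at 0.23 and Cebpb at 0.07, the opposite sign to the scaled values, none of them called. Under quantile normalization 6 members were called lower, where 26% of all genes were, Foxa1 among them at -0.38, and Cebpb was at 0.11. Scaling over genes of at least 1 FPKM in every library left 5 called lower, where 18.9% of all genes were. The sign of Foxa1, Foxa2 and Cebpb in TAA therefore depended on the scaling.

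**Figure D2:**
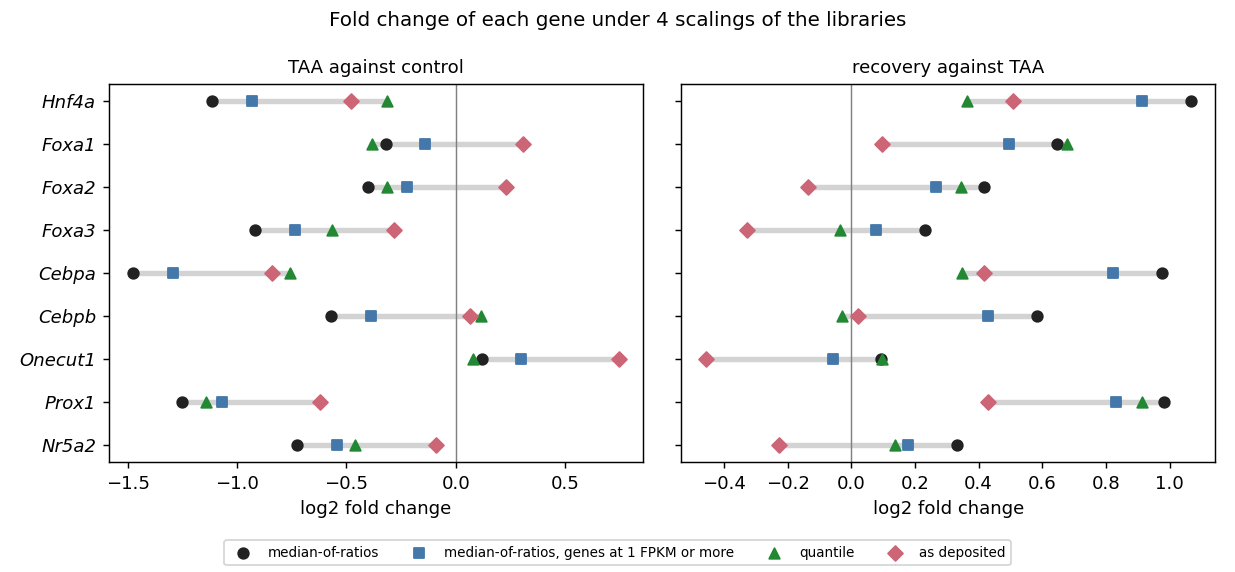
Log2 fold change (horizontal axes) of each gene in TAA against control and in recovery against TAA, under 4 scalings of the 9 libraries marked by shape. In TAA against control Hnf4a, Foxa3, Cebpa, Prox1 and Nr5a2 stay below 0 under all 4, while Foxa1, Foxa2 and Cebpb cross 0, Cebpb from -0.57 to 0.11.

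Recovery against TAA asks what came back 8 weeks after the last dose. Of the members, 7 were called higher in limma and 0 lower (also 0 at an unadjusted p under 0.05), where 24.5% of all genes were called higher and 50.5% in either direction. Hnf4a alone also passed a fold change of 2, where 7.12% of all genes were called higher. Both comparisons share the TAA libraries, so the values are given side by side and the 2 counts are not independent. Without 1 library at a time, 4 to 6 members were called higher, where 42.6% to 45.9% of all genes were called in either direction. The count was 4 without TAA replicate 2, without TAA replicate 3 and without recovery replicate 1.

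Hnf4a was 258, 185 and 186 scaled FPKM after recovery, all above the TAA livers, with a log2 fold change of 1.07 ± 0.15 and an adjusted p of 6.78e-04. Cebpa was 165, 121 and 134 scaled FPKM, between the TAA and the control values, with a log2 fold change of 0.98 ± 0.16 and an adjusted p of 0.00141. Prox1 was 12.2, 14.5 and 7.85 scaled FPKM, with recovery replicate 3 just above the highest TAA liver, a log2 fold change of 0.98 ± 0.26 and an adjusted p of 0.0160. Its call was lost without TAA replicate 2 (adjusted p 0.0525), TAA replicate 3 (0.0563) or recovery replicate 2 (0.0552). Foxa1, at 6.88, 5.78 and 5.92 scaled FPKM, was above both other groups, with a log2 fold change of 0.65 ± 0.11 against TAA and an adjusted p of 0.00242.

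Cebpb returned to 124, 99.0 and 101 scaled FPKM, with a log2 fold change of 0.58 ± 0.17 against TAA and an adjusted p of 0.0201. Foxa2 was 10.7, 7.68 and 8.16 scaled FPKM, led by recovery replicate 1, at 0.42 ± 0.15 and an adjusted p of 0.0448. Nr5a2 was 18.0, 17.5 and 15.3 scaled FPKM, in the gap between TAA and control, at 0.33 ± 0.11 and an adjusted p of 0.0408. Recovery replicate 1 was the highest recovery liver for 7 members, all but Foxa3 and Prox1. Foxa2 lost its call without any 1 of 5 of the 6 libraries, recovery replicate 2 being the exception. Nr5a2 lost it without TAA replicate 1 or 3 or recovery replicate 1 or 2, and Cebpb without TAA replicate 1 or 2 or recovery replicate 1, with adjusted p from 0.0516 to 0.136 over these fits. Foxa3, at 22.5, 23.7 and 21.3 scaled FPKM, overlapped TAA and did not pass, at 0.23 ± 0.11 and an adjusted p of 0.106, although it passed without TAA replicate 1 (0.32, adjusted p 0.0405 in limma). Onecut1 was 6.60, 4.60 and 4.09 scaled FPKM and also overlapped TAA, at 0.09 with a 95% interval from -0.62 to 0.81.

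On the deposited FPKM the median of all genes fell to -0.55 in this comparison, and Hnf4a (0.51) and Cebpa (0.42) were the 2 members called higher, where 8.1% of all genes were called higher and 59.1% lower. Foxa3 was then called lower in recovery than in TAA at -0.33 with an adjusted p of 0.0152 in limma, and Foxa2, Onecut1 and Nr5a2 also turned negative. Under quantile normalization Foxa1 (0.68) and Prox1 (0.91) were the 2 members called, where 23.5% of all genes were called higher, and Hnf4a, at 0.36 and an adjusted p of 0.0757, and Cebpa, at 0.35 and 0.134, were not. No member was called higher under all 4 scalings. Hnf4a, Foxa1, Cebpa and Prox1 were positive in each of them.

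**Figure D3:**
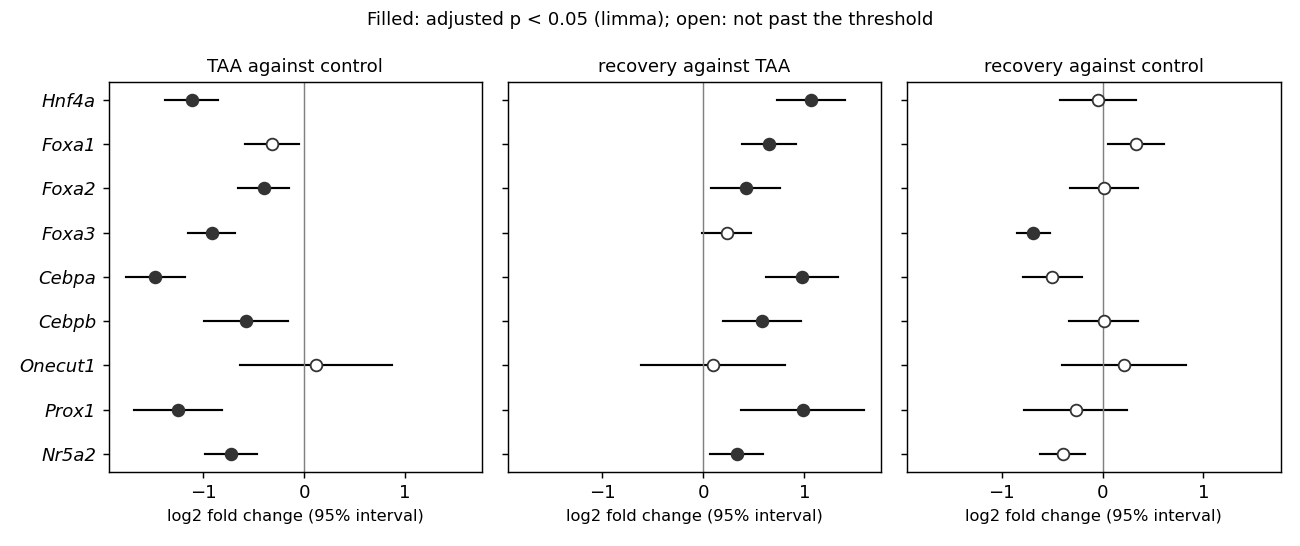
Log2 fold change with 95% interval (horizontal axes, scaled FPKM) of each gene in the 3 comparisons, filled where the adjusted p in limma was under 0.05. In recovery against control Foxa3, at -0.69, is the only filled point, while the interval of Onecut1 spans 0 in all 3 comparisons.

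Recovery against control asks what remained different. Foxa3 was called, lower, and it was the only member called, where 1.38% of all genes were called lower and 2.7% in either direction. At an unadjusted p under 0.05 in limma, 3 members were lower and 1 higher. The share of all genes past that threshold was not counted, so this count has no background beside it. No member was both called in limma and changed 2-fold (0 of 9), where 0.412% of all genes were so called lower. Foxa3 was 21.3 to 23.7 scaled FPKM after recovery and 35.3 to 37.6 in control, without overlap, at a log2 fold change of -0.69 ± 0.07, with a 95% interval from -0.85 to -0.52 and an adjusted p of 0.0122. Under the other scalings it was -0.60 to -0.66 and still called, with adjusted p from 0.0128 to 0.0139 in limma, where 1.04% of all genes were called lower on the deposited values and 1.3% after quantile normalization. The call was lost without control replicate 3 (adjusted p 0.0571) or recovery replicate 3 (0.0548), at log2 fold changes of -0.69 and -0.65. Expressed as a share of the TAA difference, 74.9% remained in the mean, and 74.4%, 66.9% and 83.3% in the individual recovery livers. That share depended on the scaling, at 89.6% with scaling over genes of at least 1 FPKM, 106% after quantile normalization and 217% on the deposited values, where the TAA difference was itself small.

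Cebpa and Nr5a2 were lower than control in every recovery liver, without overlap, and neither passed. Cebpa was at -0.50 ± 0.12 with an adjusted p of 0.0823, and passed without recovery replicate 1 (-0.62, adjusted p 0.0449). Nr5a2 was at -0.39 ± 0.09 with an adjusted p of 0.0779. The share of the TAA difference that remained was 33.8% for Cebpa and 54.2% for Nr5a2. After quantile normalization these shares were 54.0% and 70.3%, and on the deposited values 50.3% and 347%, the last against a TAA difference near 0. Foxa1 lay above every control liver, at 0.33 ± 0.12 and an adjusted p of 0.160. Groups that do not overlap were common here, at 30.2% of all genes. Hnf4a (-0.05, 95% interval from -0.42 to 0.33), Foxa2 (0.02, from -0.32 to 0.35) and Cebpb (0.01, from -0.33 to 0.35) had intervals on both sides of 0, as had Prox1 (-0.27, from -0.78 to 0.25) and Onecut1 (0.21, from -0.40 to 0.83).

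Ratios of 2 members within a library are not changed by dividing the library by a factor, but quantile normalization does change them. The pairs were Cebpb with Cebpa, Foxa2 with Foxa3 and Onecut1 with Hnf4a. With 3 livers against 3, the smallest two-sided p of the exact permutation test is 0.1, so none of the 9 tests could pass 0.05. Cebpb over Cebpa was 0.497, 0.655 and 0.494 in control, 0.801, 1.17 and 1.12 in TAA, and 0.749, 0.817 and 0.758 in recovery livers. Every TAA liver and every recovery liver lay above every control liver, by 0.90 and 0.51 on the log2 scale (exact permutation p = 0.1 for each, adjusted over the 9 tests 0.15). Recovery and TAA overlapped (p = 0.2, exact permutation test). After quantile normalization, an alternative added after the data were seen, the differences from control were 0.87 and 0.50, again without overlap. By FPKM, Cebpb was the less abundant of the pair in each control liver and was above Cebpa in 2 of 3 TAA livers. Markers of macrophages, which also express Cebpb, summed to 103 to 158 scaled FPKM in control, 202 to 265 in TAA and 171 to 229 in recovery livers. Of these markers 4 of 8 were called higher in TAA, where 28.2% of all genes were. The part of macrophages in the ratio was not tested.

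Foxa2 over Foxa3 was 0.214, 0.261 and 0.243 in control, 0.272, 0.387 and 0.376 in TAA and 0.475, 0.325 and 0.383 in recovery livers. It was above control in all TAA and all recovery livers, by 0.51 and 0.71 on the log2 scale (exact permutation p = 0.1 for each, adjusted 0.15). Recovery and TAA overlapped (p = 0.5, exact permutation test). After quantile normalization TAA overlapped control, at 0.25 (exact permutation p = 0.3), and recovery did not, at 0.63. Foxa1 over Foxa3, a pair added after its values were seen and not tested, had mean ratios of 0.136 in control, 0.206 in TAA and 0.276 in recovery. Onecut1 over Hnf4a was 0.0175, 0.0254 and 0.0181 in control and 0.0316, 0.0399 and 0.0840 in TAA, a log2 difference of 1.24 without overlap (exact permutation p = 0.1, adjusted 0.15). After recovery it was 0.0255, 0.0249 and 0.0220, below every TAA liver and overlapping control (p = 0.3, exact permutation test). The log2 difference of 1.24 was 0.82 without TAA replicate 3, and after quantile normalization it was 0.39, with TAA and control overlapping (exact permutation p = 0.7). The drop after recovery, -0.97, was then -0.26 (exact permutation p = 0.9), and without TAA replicate 3 it was -0.56. Markers of cholangiocytes, which also express Onecut1 as well as Foxa1 and Foxa2, summed to 19.0 to 25.8 scaled FPKM in control, 314 to 464 in TAA and 34.6 to 45.4 in recovery. Of these markers 9 of 9 tested were called higher in TAA, where 28.2% of all genes were. The part of cholangiocytes in the levels of Onecut1, Foxa1 and Foxa2 was not tested.

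**Figure D4:**
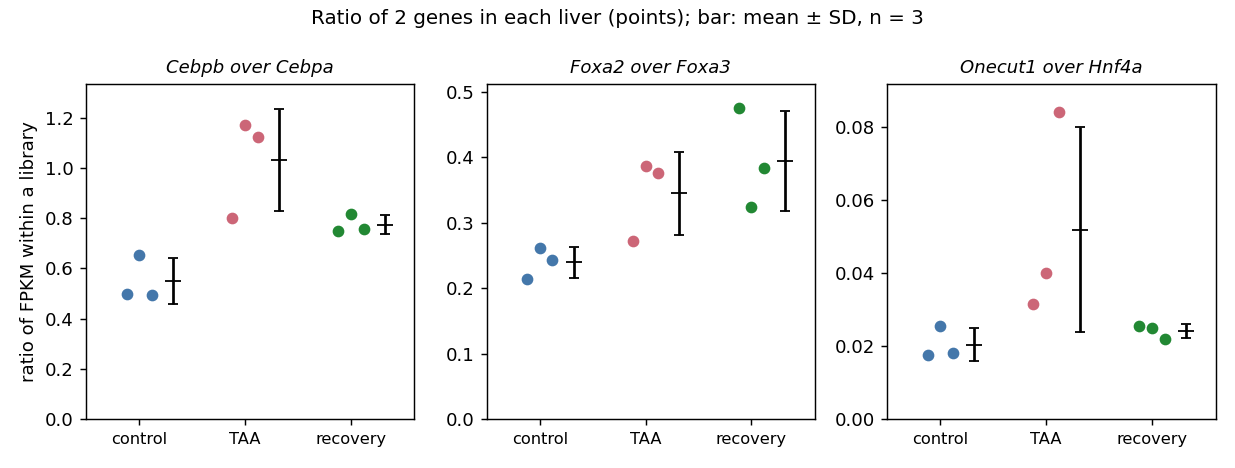
Ratio of the FPKM of 2 genes within a library (vertical axes, each from 0) in each control, TAA and recovery liver, with mean ± SD of 3. Foxa2 over Foxa3 is above the control range of 0.214 to 0.261 in all TAA and recovery livers, whereas Onecut1 over Hnf4a is back near control after recovery, at 0.0220 to 0.0255.

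The pattern of each member over the 9 livers was set against 11100 other genes by the root mean square difference of log2 levels around each gene's own mean, which is a description. The genes nearest to Hnf4a were Dcun1d4 (0.10), Dyrk2 (0.11) and Cmtm8 (0.11). Nearest to Cebpa were Lzts3 (0.07), Ppara (0.10), the receptor of fatty acid oxidation, and Mavs (0.10). Near to Foxa1 were Srsf2 (0.07) and Gfer (0.07), and nearest to Foxa2 were Vps53 (0.07), Rnf111 (0.08) and Taf10 (0.09). Foxa3 was nearest to Itch (0.09), Klhl24 (0.09) and 1700022I11Rik (0.10), Nr5a2 to Tesk2 (0.07), Vps41 (0.07) and Ube2g1 (0.08), and Cebpb to Map2k2 (0.10), Cenpv (0.11) and Tbrg4 (0.11). Prox1 and Onecut1 had no gene as close, with Anpep (0.19), Acadvl (0.19) and Urah (0.20) for Prox1, and Atp6v0c (0.16), Ccdc134 (0.21) and Ppp1r14a (0.23) for Onecut1. Among the members themselves the closest pair was Foxa3 and Nr5a2 (0.17), and 0.811% of genes were nearer to Foxa3 than Nr5a2 was. Foxa1 and Foxa2 followed at 0.18. Of the genes that overlap a member, Tmem189 was 15.8 ± 2.46 scaled FPKM in control and 7.27 ± 1.36 in TAA, with a log2 fold change of -1.11 and an adjusted p of 0.00104, so it moved the same way as Cebpb. Ttc6, over Foxa1, was 0.877 ± 0.112 and 0.471 ± 0.0961 scaled FPKM with an adjusted p of 0.0116, and R3hdml, over Hnf4a, was below 1 scaled FPKM in every library and was not called.

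Of 28 other liver transcription factor genes, 27 were tested. In TAA against control 20 were called lower and 2 higher, where 26.3% and 28.2% of all genes were. The median log2 fold change of the 27 was -0.62. On the deposited values the median was 0.02, with 7 called lower and 8 higher, where 8.5% and 62.2% of all genes were. After quantile normalization it was -0.36, with 18 lower and 2 higher, where 26% of all genes were called lower. Nr1i3 (CAR), the receptor that controls drug metabolism, fell from 75.4 ± 1.63 to 11.4 ± 1.21 scaled FPKM, a log2 fold change of -2.72 ± 0.10. Creb3l3, a factor of triglyceride metabolism, was at -1.58, Klf15, of gluconeogenesis and amino acid use, at -1.57, Nr0b2 (SHP), the corepressor in bile acid feedback, at -1.56, Ppara at -1.48, Rxra, the common partner of nuclear receptors, at -1.25 and Nr1h4 (FXR), the bile acid receptor, at -1.05, all called. Onecut2 was called lower at -0.48, and Gata6 was called higher at 0.81. Gata4 (0.29) and Hhex (-0.04) did not pass.

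In recovery against TAA 17 of the 27 were called higher, where 24.5% of all genes were, and 1, Gata6, lower (-0.66). Their median was 0.59. Nr1i3 led at 2.03, followed by Nr0b2 at 1.68 and Creb3l3 at 1.44. On the deposited values the median in recovery against TAA was 0.03, with 9 called higher and 7 lower, where 8.1% and 59.1% of all genes were. After quantile normalization it was 0.39, with 14 higher and 1 lower, where 23.5% of all genes were called higher. In recovery against control Nr1i3 was called, at -0.69 ± 0.11 with an adjusted p of 0.0349, and the other 26 were not. Without TAA replicate 3, 18 were called lower and 1 higher in TAA against control, and 18 higher and 1 lower in recovery against TAA.

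**Figure D5:**
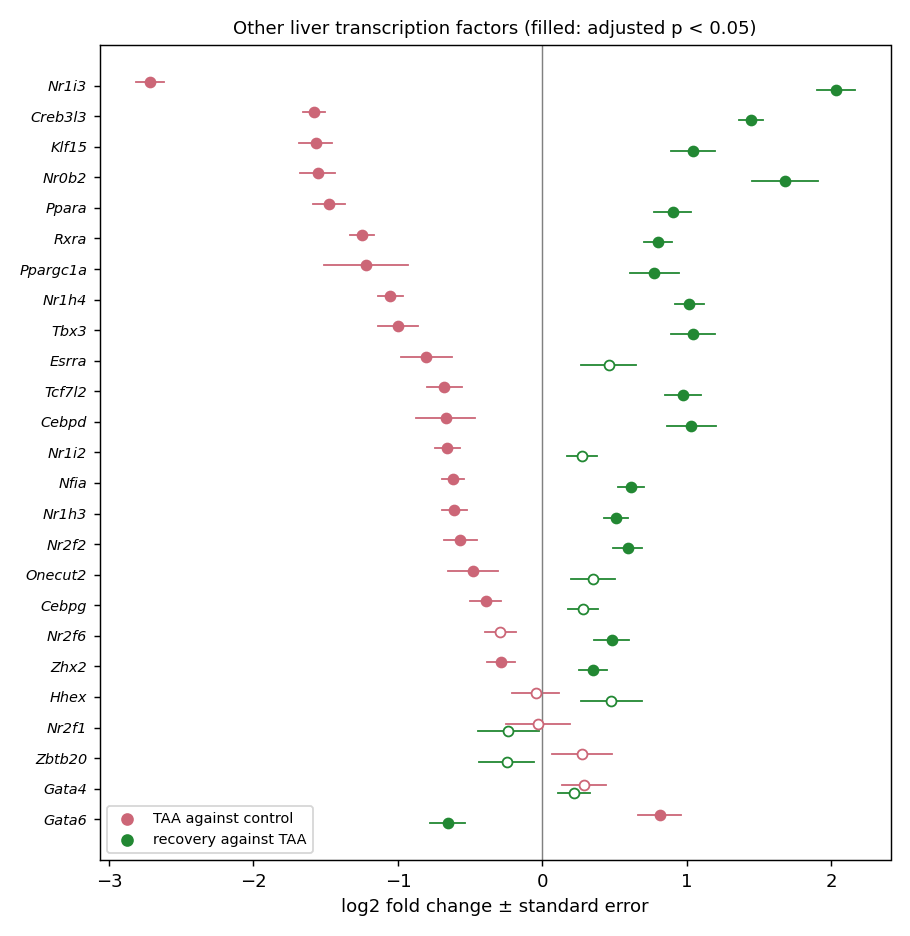
Log2 fold change ± SE (horizontal axis, scaled FPKM) of other liver transcription factor genes in TAA against control (red) and recovery against TAA (green), filled where the adjusted p in limma was under 0.05. Nr1i3 at -2.72 and 2.03 is the most extreme, and Gata6 is called higher in TAA (0.81) and lower in recovery (-0.66).

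Genes known to be bound or driven by the members were counted in the same fits. In these fits 26.3% of all genes were called lower and 28.2% higher in TAA against control. In recovery against TAA 24.5% were called higher, and in recovery against control 2.7% were called in either direction. Of 21 HNF4A targets 18 were called lower in TAA and 19 higher in recovery against TAA, with medians of -1.55 and 1.54, and 0 were called in recovery against control in limma (3 higher and 2 lower at an unadjusted p under 0.05). Cyp8b1, the sterol hydroxylase that makes cholic acid, was at -5.23, Pck1, of gluconeogenesis, at -2.53, Slc10a1 (NTCP), the bile acid importer, at -2.52, and Apoa2 at -1.87. Of 11 FOXA targets 6 were called lower and 1 higher in TAA, the latter Afp, the fetal serum protein, which went from 0.519 ± 0.119 to 40.3 ± 10.7 scaled FPKM and back to 0.276 ± 0.0506. Of 16 C/EBP targets 11 were called lower and 2 higher. These 2 were Orm2 and Hamp, named after their values were seen. The NR5A2 and ONECUT1 targets had 8 of 12 lower and 2 higher, and the PROX1-bound metabolic genes had 4 of 5 lower, led by Hpd at -2.49. In recovery against control 1 gene was called in each of the last 3 lists, always lower, among them Gys2 (liver glycogen synthase) at -1.32 and Abcg8 (a biliary sterol exporter) at -0.86. Of the FOXA targets, 0 were called in that comparison in limma (1 higher and 2 lower at an unadjusted p under 0.05). The share of all genes past an unadjusted p of 0.05 was not counted. Several targets stand in more than 1 list. Foxa2, itself a member, is among the NR5A2 and ONECUT1 targets and is counted there as lower in TAA and higher in recovery against TAA. Without TAA replicate 3, 17 HNF4A targets were called lower in TAA and 18 higher in recovery against TAA. Over all genes in TAA, 8.5% were called lower and 62.2% higher on the deposited values, and 26% lower after quantile normalization. On the deposited FPKM the median of the HNF4A targets was -0.91 with 14 of 21 called lower. Under quantile normalization it was -0.35 with 10 lower and 3 higher. In recovery against TAA the HNF4A targets had 16 higher and 0 lower on the deposited values (median 0.98), where 8.1% and 59.1% of all genes were. After quantile normalization they had 13 higher and 3 lower (median 0.74), where 23.5% of all genes were called higher. The FOXA targets in TAA had 4 lower and 2 higher on the deposited values, and 3 lower and 5 higher after quantile normalization, with medians of -0.22 and 0.12 against -0.85 as scaled. The C/EBP targets had 6 lower and 2 higher on the deposited values, and 5 lower and 4 higher after quantile normalization, with medians of -0.39 and -0.10 against -1.02. The NR5A2 and ONECUT1 targets had 5 lower and 2 higher, then 7 lower and 1 higher, and the PROX1-bound genes 3 lower and 0 higher under each.

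Marker lists of other cell types were measured in the same libraries. Of all genes, 26.3% were called lower and 28.2% higher in TAA against control, and 2.7% were called in recovery against control. The summed level of 11 hepatocyte markers was 45515 to 49797 scaled FPKM in control, 24183 to 31577 in TAA and 53318 to 55992 in recovery livers, 9 of 11 called lower in TAA. On the deposited values 6 of these 11 were called lower and 1 higher, where 8.5% and 62.2% of all genes were. After quantile normalization 3 were called lower and 4 higher, where 26% of all genes were called lower. In recovery against control 0 of the 11 were called in limma (median log2 fold change 0.06), although their summed level lay above control. After quantile normalization 1 was called higher in that comparison, where 2.57% of all genes were called in either direction. For 8 stellate cell or myofibroblast markers the sums were 33.6 to 41.1, 204 to 262 and 31.7 to 42.7 scaled FPKM, with 8 of 8 called higher in TAA, and for 5 proliferation genes they were 0.988 to 1.73, 24.6 to 33.9 and 2.76 to 4.49. Neutrophil markers summed to 1.23 to 4.56, 16.5 to 22.5 and 3.54 to 5.39 scaled FPKM, with 5 of 5 tested called higher. Endothelial markers summed to 53.2 to 97.3, 58.8 to 78.1 and 89.7 to 102 scaled FPKM and lymphocyte markers to 1.66 to 4.33, 4.19 to 5.90 and 1.64 to 4.26. Pancreatic acinar markers summed to at most 0.446 scaled FPKM, and Pnlip was at 0 in every library. A list of 12 clock genes summed to 233 to 256, 139 to 155 and 102 to 124 scaled FPKM, and 3 were called higher and 5 lower in recovery against control, with Dbp at -3.21, Npas2 at 3.03, Arntl at 2.90 and Ciart at -2.78. Clock genes differ with the hour of collection, which is not given in the sources used here. What part these cell types and the clock have in the levels of the members, Foxa3 after recovery included, was not tested.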

How the data were processed

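The authors made paired-end mRNA libraries from 9 livers, whose reads were mapped to mm10 with HISAT2 (2.2.1) and counted per gene with featureCounts (1.5.0-p3). The deposited values are FPKM made by the authors from these counts, with no scaling between libraries beyond that for library size. The authors tested their counts with DESeq2, which cannot be applied to FPKM, so limma was used here. The annotation release is not given in the sources used here, and 92.4% of loci were as in GENCODE M21. Library sizes were inferred from the spacing of low values, of which 57.3% to 64.9% per library lay within 0.1 of a whole number of fragments, so precision rests on the spread of 3 mice. Each numbered sample was taken as 1 mouse.

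To scale the libraries, a median-of-ratios factor was taken over the 14005 genes above 0 in each library. The 14094 genes averaging 0.1 FPKM or more were fitted as log2(scaled FPKM + 0.1) in limma (3.58.1, R 4.3.3; lmFit, eBayes with trend) on the 6 libraries of each comparison, with Benjamini-Hochberg adjustment. Fold changes are on that log2 scale and understate the change of low genes. "Called" means an adjusted p under 0.05. Ratios within libraries used an exact two-sided permutation test (scipy 1.17.1). Alternatives were other pseudocounts (0.01, 1), filters, scalings, variance models, a replicate block and leaving out each library. Added after the data were seen were list counts without TAA replicate 3, and ratios and shares under other scalings.

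All 9 members are named. Of the other lists, at most the 4 largest called changes are named per comparison, with any gene of the list of other liver transcription factors, the 3 genes nearest to each member, and genes overlapping a member. The members and lists were chosen with earlier results of these data known. 1 of the 22 HNF4A targets was not analysed here, and some genes that this rule names are counted in their lists but not reported here by name.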

Additional observations from a re-analysis of the deposited data

How the results depend on the processing

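On FPKM as deposited, 4 members were called in TAA against control, where 70.7% of all genes were called in either direction. In recovery against TAA 3 were called, 2 higher and 1 lower, where 67.2% of all genes were called. None had a 2-fold change in either comparison (0 and 0). Quantile normalization left 1 member with a 2-fold call in TAA against control. In recovery against TAA it left 2 called, where 46.5% of all genes were, and 0 with 2-fold. Scaling over genes at 1 FPKM or more left 4 and 0 in recovery against TAA, where 50.1% of all genes were called. A test against a fold change of 2 (limma treat) called 1 member in TAA against control, Cebpa, where 10.2% of all genes were called. It called 0 in each of the other comparisons, where 7.69% and 0% of all genes were called.

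FPKM as deposited shifts all genes together against the scaled values, since the scaling moved log2 fold changes by -0.64 in TAA against control, 0.56 in recovery against TAA and -0.08 in recovery against control. Signs therefore turned for members closer to 0 than that shift, Foxa1 (0.31), Foxa2 (0.23) and Cebpb (0.065) in TAA against control, for Foxa2 (-0.14), Foxa3 (-0.33), Onecut1 (-0.46) and Nr5a2 (-0.23) in recovery against TAA, and for Hnf4a (0.030) in recovery against control. Under quantile normalization they turned for Cebpb (0.11 in TAA against control, -0.029 in recovery against TAA), Foxa3 (-0.034 in recovery against TAA) and Hnf4a (0.048 in recovery against control), and under scaling over genes at 1 FPKM or more for Onecut1 (-0.058 in recovery against TAA). The cause was not tested beyond the shift of the median of all genes.

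Leaving out 1 library at a time gave 5 to 7 members called in TAA against control (3 to 4 with 2-fold). It gave 4 to 6 in recovery against TAA (0 to 3 with 2-fold) and 0 to 2 in recovery against control. Of all genes, these fits called 47.2% to 51.8%, 42.6% to 45.9% and 0.277% to 1.38% in either direction. The log2 fold change of Onecut1 then ranged from -0.22 to 0.36 in TAA against control and from -0.15 to 0.44 in recovery against TAA. In recovery against control Hnf4a ranged from -0.21 to 0.036, Foxa2 from -0.13 to 0.11 and Cebpb from -0.092 to 0.14. The ratios kept their sign in each such fit and after quantile normalization.

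The replicate numbers were not taken as pairs. Deviations of same-numbered libraries correlated at -0.07 to 0.12, and those of unlike number at -0.11 to 0.13. Correlations this small cannot exclude a pairing. With the number as a replicate block, 7, 6 and 0 members were called in the 3 comparisons, where 51.5%, 47.6% and 0.135% of all genes were. Foxa3 in recovery against control then had an adjusted p of 0.0584 in limma. Not every library correlated best with its own number.

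Over all genes, 2-fold calls in TAA against control numbered 3520, and 1780 with a pseudocount of 1 or 1441 with treat. In recovery against TAA they numbered 3017, 1460 and 1084. Recovery against control called 381 genes, 855 with all 9 libraries in 1 fit, 533 with robust eBayes, 557 at a mean FPKM of at least 1, 151 without the trend, 137 without a filter, 19 with the block, 0 with treat and 39 to 194 without 1 library. With 3 livers a group, small differences could not be resolved. Foxa1 (354 to 738 fragments a library), Foxa2 (424 to 870) and Onecut1 (357 to 1655) rest on the fewest fragments.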
